A study of Mus musculus with 26 samples.

Results

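The genes described here encode the machinery that moves newly made protein from the endoplasmic reticulum (ER) through the Golgi to the cell surface: the translocon and signal peptidase, the COPII and COPI vesicle coats, the small GTPases Sar1 and ARF, the p24 cargo receptors, the TRAPP tethering complex and the SNARE proteins that fuse membranes. Members were chosen by symbol alone, as every probe set with 1 annotated symbol of the forms Sec, Cop, Arf, Tmed, Trappc, Sar1, Stx, Vamp or Snap followed by a number or subunit letter. This gave 89 of the 18193 genes with a probe set of a single symbol, on 197 of the 45037 probe sets tested. All 89 were tested, with no filter on low values, each read from its brightest probe set by mean over the 26 arrays. The rule by symbol also took Sec1, which is a fucosyltransferase gene and no part of this machinery, the Sec14-like lipid transfer proteins (4 genes) and Snap91, a clathrin assembly protein.

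Total RNA of the inguinal mammary gland was hybridised to 26 Affymetrix mouse arrays, 1 per sample. CBA/CaH and QSi5 mice, the parental strains, were sampled on day 12 of pregnancy (5 arrays each) and on day 9 of lactation (3 arrays each). Advanced Intercross Line (AIL) mice of generation 14 of CBA/CaH x QSi5 were sampled on day 9 of lactation (10 arrays, 5 with the sample code AC and 5 with AQ). The labels name no transgene, drug or pooling of animals, do not say what the codes stand for, and give no batch or processing order. AIL mice are a segregating population and not 1 genotype, and no AIL mice were sampled in pregnancy.

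Secreted proteins enter the ER through the Sec61 channel, leave it in vesicles coated by COPII (an inner layer of Sec23 and Sec24, an outer layer of Sec13 and Sec31), and pass the Golgi, where COPI vesicles return material. TRAPP and other tethers capture vesicles, and SNAREs on both membranes pull them together. In the lactating gland the alveolar epithelial cells send caseins and lactose out by this route, while milk fat leaves the cell in an envelope of plasma membrane.

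The tissue was checked by marker lists. At lactation 6 of 10 milk protein genes were higher in CBA/CaH and 7 of 10 in QSi5, and the mean of the 10 lay at 11.50 to 12.98 on the log2 scale in pregnancy and at 14.33 to 14.44 on the parental lactation arrays. Markers of other cell types moved with the stage. Of 9 epithelial genes 7 in CBA/CaH and 8 in QSi5 were lower at lactation, of 9 fibroblast and matrix genes 7 in each strain, of 7 white adipocyte genes 6 and 3, of 8 myoepithelial genes 6 and 7, and of 8 endothelial genes 6 and 6. Of 7 macrophage genes 3 in each strain were lower. Higher at lactation were 3 of 8 B and plasma cell genes in CBA/CaH and 8 of 8 in QSi5 (medians 0.52 and 1.46), and 4 of 9 nerve genes in each strain. Brown adipocyte genes differed in direction, with 1 of 7 higher and 3 lower in CBA/CaH and 3 higher in QSi5, and 1 of 10 muscle genes was higher in each strain. In bulk tissue, fewer cells of a type and less RNA per cell cannot be told apart, and the part of these shifts in the results was not tested. Single arrays stood apart by muscle, brown fat or B and plasma cell genes or by the Gapdh 3' minus 5' value, 7 in all. The pregnancy QSi5 array 4 had a Gapdh value of 6.50, where the other pregnant QSi5 mice had 1.20 to 1.74, and it was the lowest of the 5 for 49 of the 89 members.

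The arrays also differed in their whole distribution, which touches every comparison of the stages. The 95th percentile of all probe sets lay at 9.54 to 9.88 on the log2 scale on the pregnancy arrays, at 8.94 to 9.15 on the parental lactation arrays and at 9.26 to 9.49 on the AIL arrays. The median array value was 5.00 to 5.14 in pregnancy and 5.26 to 5.30 in parental lactation. The median difference over all probe sets, lactation minus pregnancy, was 0.174 in CBA/CaH and 0.191 in QSi5. Bringing the arrays to a common distribution moved many members, so directions are given with the scalings under which they turn.

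Promoters are shown for 5 COPII and syntaxin genes picked by hand, as sequence the changes can be set beside. Sec23b among them was not called between the stages with the deposited values. RefSeq promoters (GRCm38.p6, 250 bases before to 50 after the gene start) matched 74 of the 89 members by symbol. They were searched on both strands for TGACGTG, letters found in sites of the ER stress factors ATF6 and XBP1, and for CCACG and CCAAT, the parts of the ER stress response element. The last letters of TGACGTG followed by G also read as CCACG on the other strand, so those matches can overlap. The 5 promoters below are printed 5′ to 3′ on the strand of the gene, with matches to any of the 3 motifs in capitals.
Sec23a (chr12:59011968-59012267, minus strand): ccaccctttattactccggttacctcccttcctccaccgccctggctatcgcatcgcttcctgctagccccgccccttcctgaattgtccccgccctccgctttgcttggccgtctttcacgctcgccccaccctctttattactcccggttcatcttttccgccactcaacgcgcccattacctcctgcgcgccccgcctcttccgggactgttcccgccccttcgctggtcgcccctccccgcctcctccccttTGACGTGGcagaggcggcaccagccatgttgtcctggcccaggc
Sec24d (chr3:123267246-123267545, plus strand): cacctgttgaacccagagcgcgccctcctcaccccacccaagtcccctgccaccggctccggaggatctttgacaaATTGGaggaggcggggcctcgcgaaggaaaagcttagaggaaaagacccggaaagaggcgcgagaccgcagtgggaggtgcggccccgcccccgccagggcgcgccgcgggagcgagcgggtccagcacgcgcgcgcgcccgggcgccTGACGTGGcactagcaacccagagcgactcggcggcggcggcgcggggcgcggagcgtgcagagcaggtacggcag
Sec23b (chr2:144555979-144556278, plus strand): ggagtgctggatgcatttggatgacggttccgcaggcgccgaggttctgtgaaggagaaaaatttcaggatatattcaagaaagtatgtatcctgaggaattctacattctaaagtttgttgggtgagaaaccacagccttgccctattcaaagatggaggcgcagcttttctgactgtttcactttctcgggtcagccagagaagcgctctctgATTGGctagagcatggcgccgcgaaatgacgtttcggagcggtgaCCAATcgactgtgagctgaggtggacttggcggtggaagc
Stx6 (chr1:155158453-155158752, plus strand): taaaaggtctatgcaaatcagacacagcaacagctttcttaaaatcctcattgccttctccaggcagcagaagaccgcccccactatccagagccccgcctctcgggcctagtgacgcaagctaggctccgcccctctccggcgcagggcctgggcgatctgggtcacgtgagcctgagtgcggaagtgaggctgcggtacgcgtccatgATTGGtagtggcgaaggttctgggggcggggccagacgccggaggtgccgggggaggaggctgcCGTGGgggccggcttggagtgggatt
Stx19 (chr16:62814426-62814725, plus strand): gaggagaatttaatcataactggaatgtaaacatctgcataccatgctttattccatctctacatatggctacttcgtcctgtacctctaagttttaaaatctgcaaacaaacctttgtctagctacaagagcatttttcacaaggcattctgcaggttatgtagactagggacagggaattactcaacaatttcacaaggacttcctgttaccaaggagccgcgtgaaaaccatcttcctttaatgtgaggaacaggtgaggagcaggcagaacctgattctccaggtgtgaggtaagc

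TGACGTG stood in 6 of the 74 member genes with a promoter (8.11%): Arf1, Copb1, Copb2, Sec16b, Sec23a and Sec24d. Among all 27025 genes with a promoter it stood in 2.22%. The shorter motifs were found in 59.5% of members against 35.5% of all genes for CCACG, and in 37.8% against 41.1% for CCAAT. Sec23a and Sec24d hold TGACGTG while Sec23b, of which the first of 2 listed promoters is shown, holds CCAAT at 2 places and neither of the other motifs. The Stx19 promoter holds none of the 3. A match is a description of the letters and not a site, and no motif was set against the expression differences by a test.

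The first comparison set lactation against pregnancy within each strain. With the deposited values more trafficking genes fell than rose, while with quantile normalization more rose than fell. In CBA/CaH 14 of 89 were higher at lactation (limma, adjusted p under 0.05) and 28 lower, where 30.4% of all genes were higher and 29.5% lower. In QSi5 14 were higher and 35 lower, against 33% and 32.7% of all genes. The strains share no arrays, and 10 members were higher and 27 lower in both, with no member called in opposite directions. Of all genes 26.5% were higher and 27% lower in both strains, so the members' share of lower calls (30.3%) lay near the background and their share of higher calls (11.2%) below it, a difference that was not tested. The median difference over the 89 was -0.20 log2 units in CBA/CaH and -0.34 in QSi5, against 0.05 and 0.04 over all genes.

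**Figure D1:**
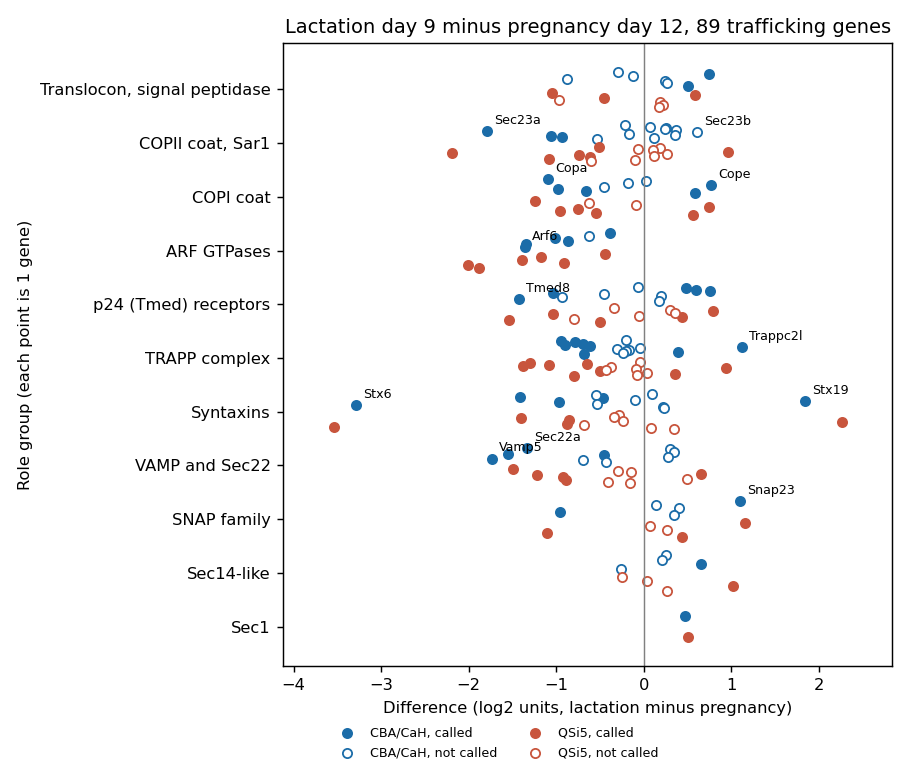
Difference between lactation and pregnancy (log2 units, x axis) for each of the 89 genes, by role, in CBA/CaH (blue) and QSi5 (red). Filled points were called at an adjusted p under 0.05 and open points were not. Stx6 lies farthest to the left in both strains, at -3.29 and -3.54, and Stx19 farthest to the right, at 1.84 and 2.26. The points show the deposited values. With quantile normalization the median turns positive for COPI, TRAPP, syntaxin and VAMP and Sec22 genes but not for the ARF GTPases.

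Bright genes as a whole were mostly lower at lactation, and 56 of the 89 members had a mean level of 8 or more, a limit set after the values were seen. Of all 3705 such genes 10.3% were up and 51.1% down at lactation for CBA/CaH mice, and in QSi5 11.7% rose and 54.2% fell. Of the 56 members 12.5% rose and 26.8% fell in CBA/CaH, and in QSi5 8.93% rose and 35.7% fell. The difference between members and other bright genes was not tested. The count turned with the scaling of the arrays. With quantile normalization 33 members rose and 14 fell in CBA/CaH, while in QSi5 33 rose and 19 fell. Over all genes that scaling gave 28.5% higher calls and 20.8% lower calls for CBA/CaH mice, against 37.1% and 15.7% of members. For QSi5 mice it gave 30.4% higher and 23.2% lower, against 37.1% and 21.3% of members. With the array medians set equal it was 5 and 31, and 4 and 44, where the shares over all genes were 20.3% higher with 34.1% lower for CBA/CaH, then 21.4% with 38.4% for QSi5. With cyclic loess 30 members rose and 12 fell in CBA/CaH (23% and 22.3% over all genes), and in QSi5 33 rose and 20 fell (24.9% and 25.4%).

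**Figure D2:**
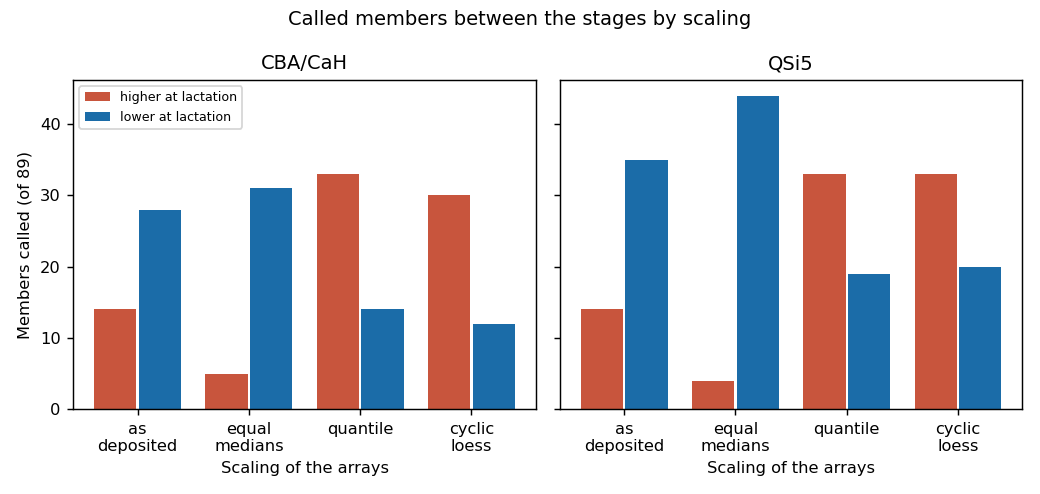
Members called higher (red) and lower (blue) at lactation, of 89 (y axis), with the values as deposited, with equal array medians, with quantile normalization and with cyclic loess. In both strains lower calls outnumber higher ones in the first pair of scalings, and the order turns in the second pair.

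Some members kept their calls under every scaling run. In both strains 11 were lower and 2 higher under all 3 other scalings. How many of all genes kept their calls in this way was not counted, so these numbers have no background. Of these members Arf6, Sec22a, Sec23a, Stx6, Stx16, Tmed8 and Vamp2 stayed lower, and Stx19 and Trappc2l higher, under every other alternative and with any 1 array left out, except that Trappc2l in QSi5 (0.94) missed a limit of 1 log2 unit. Arf3, Sec24b, Stx2 and Vamp5 kept their calls through the scalings but lost them under another alternative in at least 1 strain. Every member called in both strains outside these 13 lost a call under at least 1 of the 3 scalings. A gene's probe sets did not always move together. Of the 58 members with several, 9 called in CBA/CaH and 14 called in QSi5 had another set called the other way. Of the genes just named these were Arf3, Sec24b and Vamp2 in CBA/CaH, and Arf3, Sec24b, Stx6, Tmed8 and Vamp5 in QSi5.

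**Figure D3:**
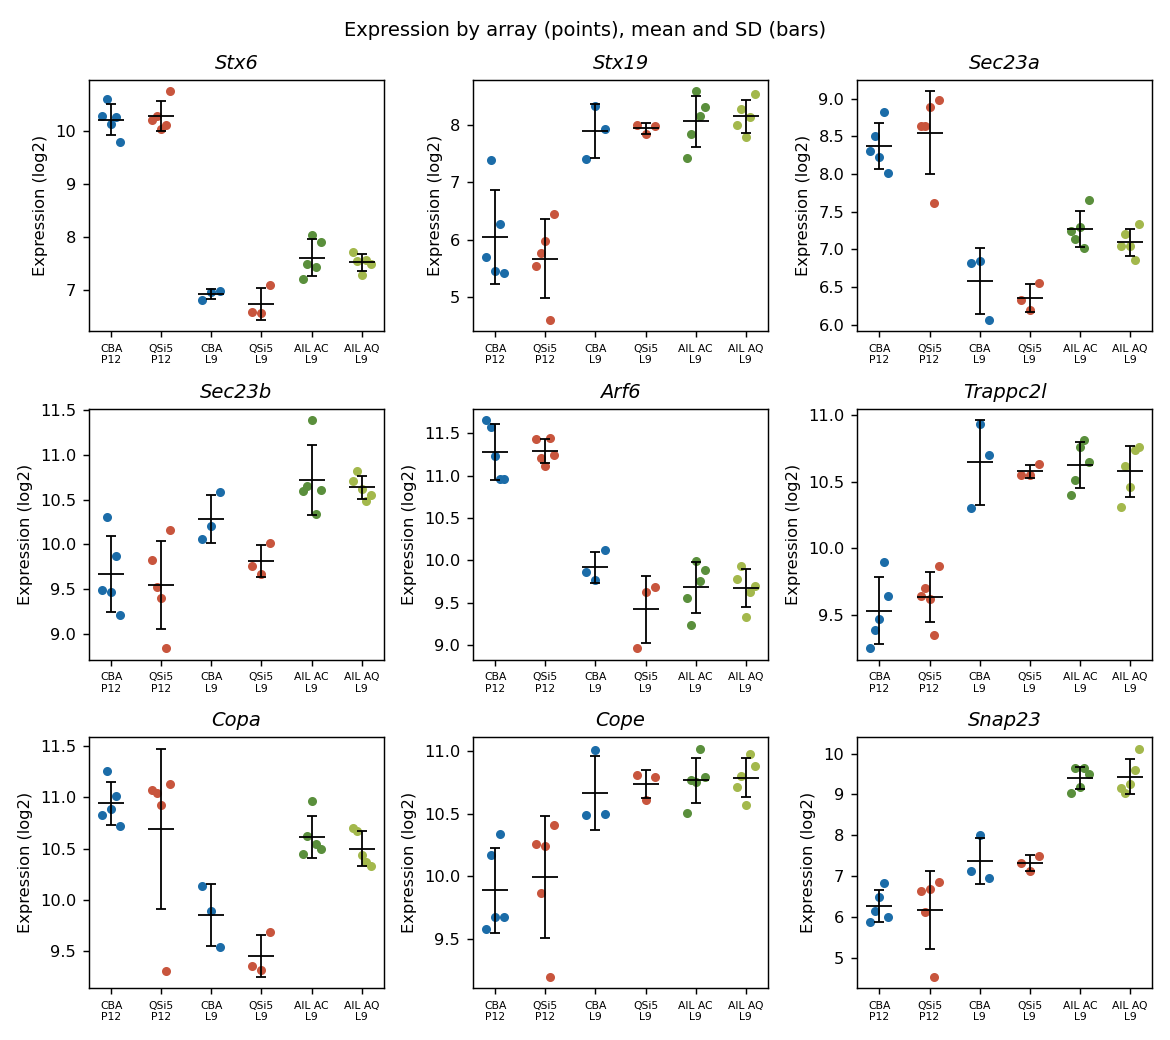
Expression (log2, y axis) of 9 genes on each array (points) with the mean and SD of each group (bars), for CBA/CaH and QSi5 in pregnancy (P12) and lactation (L9) and for AIL AC and AQ. Within each parental strain the stages do not overlap for Stx6, Sec23a, Arf6 and Trappc2l. Snap23 is highest on the 10 AIL arrays.

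At the ER membrane most genes were not called. The 7 measured translocon and signal peptidase genes include Sec61a1 and Sec61b of the channel, Sec62 and Sec63, which assist it, and Sec11a and Sec11c, catalytic subunits of the signal peptidase that cuts the leader off secreted proteins. In CBA/CaH 2 were higher and none lower, where 30.4% of all genes were higher and 29.5% lower. In QSi5 1 was higher and 2 lower, against 33% and 32.7% of all genes. Sec11c rose in CBA/CaH, with a difference of 0.74 log2 units (SE 0.22, limma adjusted p = 0.0119). In QSi5 its difference was 0.58 (SE 0.22, adjusted p = 0.035). The QSi5 call was lost with each of 4 single arrays left out, pregnancy arrays 2 and 4 and lactation arrays 1 and 3 (adjusted p 0.0615 to 0.202), and both calls were lost with equal array medians. Sec11a differed by -0.29 in CBA/CaH (not called) and -1.05 in QSi5 (SE 0.15, adjusted p = 3.60e-05), but that call was lost with the mean of its probe sets (adjusted p = 0.0711). Sec61a1, the pore subunit, read -0.12 in CBA/CaH and -0.45 in QSi5 (limma adjusted p = 0.0413). That call was lost with pregnancy QSi5 arrays 1 or 4 or lactation QSi5 arrays 1 or 2 left out (adjusted p 0.0663 to 0.247). It was also lost with quantile normalization, where the difference was 0.04 log2 units. The 7 genes had a median difference of 0.24 for CBA/CaH and 0.17 for QSi5, which turned to -0.05 in QSi5 with equal array medians.

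Among the COPII genes Sec23a differed most. Sec23a is an inner coat subunit that stimulates GTP hydrolysis by Sar1. It read 8.31, 8.50, 8.23, 8.82 and 8.01 on the pregnancy CBA/CaH arrays and 6.82, 6.85 and 6.07 at lactation. In QSi5 it read 8.63, 8.63, 8.89, 7.61 and 8.98 in pregnancy and 6.33, 6.19 and 6.55 at lactation. No lactation array of either strain reached the lowest pregnancy array of its strain. Sec23a fell in both strains. The difference was -1.79 for CBA/CaH (SE 0.28, adjusted p = 9.82e-05), and for QSi5 it was -2.19 (SE 0.28, adjusted p = 1.20e-05). The difference between Sec23a and its paralog Sec23b was not tested. Sec23b, which has the same role, read 9.21 to 10.31 in pregnancy and 10.06 to 10.58 at lactation in CBA/CaH, and 8.84 to 10.16 against 9.67 to 10.02 in QSi5. The stages overlap for Sec23b, with differences of 0.61 (SE 0.27, adjusted p = 0.069) and 0.27 (SE 0.27, adjusted p = 0.406). It was called higher in both strains with quantile normalization (1.19 and 0.98) and with cyclic loess.

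The Sec24 genes encode the cargo-binding subunits. Sec24b fell (-1.06 and -0.62, adjusted p = 9.21e-04 and 0.0217) and so did Sec24c (-0.94 and -1.08, adjusted p = 0.00262 and 7.49e-04), in CBA/CaH and QSi5 in that order. Sec24a (0.36 and 0.12) and Sec24d (0.12 and -0.10) were not called. The Sec24c calls were lost with quantile normalization and cyclic loess, and the Sec24b calls with the mean of its probe sets. The second Sec24b probe set, at a like mean level (5.43 against 5.58), was called the other way, at 0.52 and 0.67 (adjusted p = 0.0488 and 0.0134). Differences among the Sec24 genes were not tested. Of the 13 COPII and Sar1 genes 3 were lower in CBA/CaH, where 29.5% of all genes were lower. In QSi5 5 were lower and 1 higher, against 32.7% and 33% of all genes. The higher one was Sec16b, an organiser of ER exit sites (0.96, limma adjusted p = 0.0272, lost with any of 4 single QSi5 arrays left out). The medians of 0.07 and -0.10 moved to 0.66 and 0.62 with quantile normalization.

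In the COPI coat, which surrounds Golgi vesicles, subunits moved in both directions. Copa, the alpha subunit, read 10.72 to 11.26 in pregnancy and 9.54 to 10.14 at lactation in CBA/CaH. In QSi5 it read 10.93 to 11.13 on 4 pregnancy arrays, 9.31 on array 4, and 9.32 to 9.69 at lactation. Copa fell (-1.09 and -1.24, SE 0.32, adjusted p = 0.0109 and 0.00429). The calls were lost with quantile normalization and with cyclic loess, and in CBA/CaH with lactation array 3 left out (adjusted p = 0.0586). Cope, the epsilon subunit, was 9.58 to 10.34 in pregnancy and 10.49 to 11.01 at lactation in CBA/CaH, and 9.20 to 10.41 against 10.61 to 10.81 in QSi5, with no overlap in either strain. Cope rose by 0.77 and 0.74 (SE 0.25, adjusted p = 0.0167 and 0.0187). Those calls were lost with equal array medians, and with lactation CBA/CaH array 2 (adjusted p = 0.0944) or lactation QSi5 arrays 1 or 3 (adjusted p 0.0602 and 0.0549) left out. Of the 8 COPI genes 2 were higher and 3 lower in CBA/CaH, with a median of -0.31 that turned to 0.33 with quantile normalization. QSi5 had 2 higher and 4 lower, with -0.59 turning to 0.11. Lower calls took in 29.5% of all genes in CBA/CaH and 32.7% in QSi5. Copz2, a zeta subunit, rose by 0.59 and 0.56 (adjusted p = 0.00354 and 0.00447), a call lost in QSi5 with equal array medians (0.33, adjusted p = 0.0753), while its paralog Copz1 fell (-0.66 and -0.55, adjusted p = 9.16e-04 and 0.0027). The Copz1 differences turned positive with the mean of its 2 probe sets (0.10 and 0.30), and the lower calls were lost with quantile normalization (-0.10 and 0.09) and with cyclic loess.

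The ARF GTPases, which recruit COPI and adaptor coats or, in the case of Arf6, act at the plasma membrane, had lower calls and no higher one on their brightest probe sets. In CBA/CaH 5 of 6 and in QSi5 6 of 6 were lower, against 29.5% and 32.7% of all genes. Among genes with a mean level of at least 8, 51.1% and 54.2% were lower, and the ARF genes were not tested against these shares. The ARF medians were -0.94 and -1.28. Arf6 read 10.96 to 11.66 in pregnancy and 9.77 to 10.12 at lactation in CBA/CaH, and 11.12 to 11.45 against 8.96 to 9.68 in QSi5. The stages lie far apart, and Arf6 fell (-1.36 and -1.88, SE 0.20, adjusted p = 5.38e-05 and 1.91e-06). Arf3 fell (-1.01 and -1.39), but an Arf3 probe set with a mean level of 5.26 rose by 1.09 and 1.20 (adjusted p = 5.53e-06 and 1.47e-06). Arf5 fell (-1.35 and -2.01), a call lost in CBA/CaH with quantile normalization (adjusted p = 0.0816) and cyclic loess (0.146). Of the Arf1 probe sets the brightest was lower (-0.39 and -0.44) and one with a mean level of 4.30 rose by 0.62 and 0.96. With quantile normalization 2 of 6 and 4 of 6 were lower and none was higher, and Arf1 turned to 0.08 in CBA/CaH and 0.04 in QSi5 with cyclic loess. The other 3 Arf6 probe sets read -0.56, -1.04 and -0.33 in CBA/CaH, and the QSi5 differences were -1.01, -1.09 and -0.17.

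Among the 10 p24 proteins, which sort cargo between ER and Golgi, the pattern was mixed. Tmed3 read 10.78 to 11.50 in pregnancy and 11.79 to 11.95 at lactation in CBA/CaH, without overlap, and 10.54 to 10.86 against 10.94 to 11.27 in QSi5, also without overlap. Tmed3 rose in CBA/CaH (0.76, SE 0.15, adjusted p = 8.36e-04), while QSi5 gave 0.36 (SE 0.15, adjusted p = 0.0556). Tmed8 fell (-1.43 and -1.54, SE 0.23, adjusted p = 1.69e-04 and 6.37e-05), with levels in CBA/CaH of 6.73 to 7.49 in pregnancy and 5.54 to 5.82 at lactation. Tmed4 fell by 1.04 in each strain (SE 0.13, adjusted p = 1.48e-05 and 9.40e-06), a call lost in both with cyclic loess and in QSi5 with quantile normalization. Higher calls of Tmed2, Tmed6 and Tmed11 concern probe sets with a mean level of 3.23 to 3.74, near the bottom of the scale. Probe sets that list Tmed2 with the symbol Gm10698 were not used. In all 8 members had a mean level under 5, and 3 of the 14 higher calls in CBA/CaH and 4 of the 14 in QSi5 were of such genes.

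The TRAPP complex, a tether of incoming vesicles and an exchange factor for Rab GTPases, had 2 subunits higher and 6 lower of 14 in each strain. The share of all genes called lower was 29.5% in CBA/CaH and 32.7% in QSi5. Trappc2l read 9.25, 9.39, 9.47, 9.90 and 9.64 in pregnancy and 10.30, 10.93 and 10.70 at lactation in CBA/CaH. In QSi5 it read 9.64, 9.70, 9.62, 9.35 and 9.87, then 10.55, 10.55 and 10.63. The lowest lactation array stood above the highest pregnancy array in both strains, and Trappc2l rose by 1.12 and 0.94 (SE 0.17, adjusted p = 7.01e-05 and 2.12e-04). Trappc10 fell (-0.95 and -1.30, SE 0.21, adjusted p = 0.0014 and 8.98e-05) and Trappc13 fell (-0.90 and -1.38). The TRAPP medians of -0.27 and -0.41 turned to 0.34 and 0.36 with quantile normalization, under which Trappc10 and Trappc13 were no longer called in CBA/CaH.

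The syntaxins held the largest differences of the 89. Stx6, a SNARE of the trans-Golgi network and endosomes, read 10.28, 10.60, 10.13, 10.27 and 9.80 in pregnancy and 6.82, 6.97 and 6.98 at lactation in CBA/CaH. In QSi5 it read 10.21, 10.29, 10.04, 10.12 and 10.75, then 6.58, 6.56 and 7.09. More than 2 log2 units separate the stages on every array pair. Stx6 fell (-3.29 and -3.54, SE 0.19, adjusted p = 8.71e-09 and 3.13e-09). Its 6 probe sets were not alike. The next 2 by level fell too, with differences of -1.66 and -2.12 in CBA/CaH and -1.09 and -2.30 in QSi5, while a probe set with a mean level of 6.07 rose by 1.30 in QSi5 (adjusted p = 2.98e-07) and read 0.14 in CBA/CaH. On that probe set the pregnant QSi5 mice were lower than the pregnant CBA/CaH mice (-1.40, limma adjusted p = 3.85e-07), and the stage differences differed between the strains (1.16, SE 0.16, limma adjusted p = 0.00643). Stx16, which also works at the trans-Golgi network, fell (-1.42 and -1.40, SE 0.29, adjusted p = 8.59e-04 and 7.12e-04).

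Stx19, an atypical syntaxin without a transmembrane anchor, was the member that rose most. It read 5.70, 7.39, 5.45, 6.27 and 5.42 in pregnancy and 7.40, 8.33 and 7.93 at lactation in CBA/CaH. In QSi5 it read 5.54, 5.77, 5.98, 4.61 and 6.45, then 8.0, 7.83 and 7.98. The groups do not overlap, although pregnancy CBA/CaH array 2 lies within 0.01 of the lowest lactation array. Stx19 rose by 1.84 (SE 0.42, adjusted p = 0.00221) and 2.26 (SE 0.42, adjusted p = 3.65e-04). Of the 11 syntaxins 1 was higher and 4 lower in each strain, where 29.5% of all genes were lower in CBA/CaH and 32.7% in QSi5. Their medians of -0.47 and -0.34 turned to 0.11 and 0.06 with quantile normalization. Stx3, an apical plasma membrane syntaxin, was not called (-0.54 and -0.68, limma adjusted p = 0.221 and 0.122). Neither was Stx7, Stx8, Stx11, Stx12 or Stx18 on its brightest probe set. Another Stx12 set, with a mean level of 6.09, fell (-1.40 and -1.45, adjusted p = 9.67e-04 and 5.72e-04). A Stx8 set with a mean level of 7.31 rose (0.89 and 0.83, adjusted p = 5.41e-05 and 6.77e-05). A Stx3 set with a mean level of 4.69 fell in QSi5 (-0.90, adjusted p = 0.0318) and read 0.06 in CBA/CaH.

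The VAMP genes encode R-SNAREs, carried mostly by vesicles, and were counted by name together with the Sec22 genes. Of these 10 genes 4 were lower and 1 higher in each strain. Lower were 29.5% of all genes in CBA/CaH and 32.7% in QSi5. The medians of -0.44 and -0.35 turned to 0.06 and 0.13 with quantile normalization. Sec22a, an ER protein of the family, read 7.51 to 8.41 in pregnancy and 6.14 to 6.97 at lactation in CBA/CaH, and 7.19 to 8.25 against 6.22 to 6.58 in QSi5. It fell (-1.34 and -1.50, SE 0.25, adjusted p = 4.26e-04 and 1.24e-04) without overlap of the stages. Vamp2, a SNARE of regulated secretory vesicles, fell (-1.55 and -1.22, SE 0.36, adjusted p = 0.00213 and 0.00849), and its second probe set read 0.43 and 0.11. Vamp5 fell (-1.74 and -0.89, SE 0.22, adjusted p = 1.53e-05 and 0.00269). Sec22b, which acts between ER and Golgi, Vamp4, Vamp7 and Vamp8 were not called in either strain on their brightest probe sets.

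Snap23, the broadly expressed plasma membrane partner of syntaxins in secretion, read 5.87, 6.15, 6.48, 6.82 and 6.0 in pregnancy and 7.11, 8.01 and 6.96 at lactation in CBA/CaH. In QSi5 it read 6.64, 6.11, 6.69, 4.53 and 6.85, then 7.33, 7.11 and 7.50. The groups do not overlap, yet the calls rest on few arrays. Snap23 rose by 1.10 (SE 0.42, adjusted p = 0.0388) and 1.15 (SE 0.42, adjusted p = 0.0284), and the CBA/CaH call was lost without pregnancy arrays 1, 2 or 5 or lactation arrays 1 or 2 (adjusted p 0.0556 to 0.192). The QSi5 call was lost without lactation arrays 1 or 3 (adjusted p 0.0712 and 0.0872). Both calls were also lost with equal array medians and with the mean of its 3 probe sets. Snap47 fell (-0.96 and -1.11), calls lost in both strains with quantile normalization (adjusted p = 0.306 and 0.19) and with cyclic loess, and Snap25, the neuronal form, lay at a mean level of 3.09. Of the Sec14-like genes Sec14l3 was higher in both strains (0.65 and 1.02, adjusted p = 0.0182 and 8.36e-04). The CBA/CaH call was lost with equal array medians (adjusted p = 0.0569), with the replicate block (0.0566) and without lactation arrays 1 or 2 (0.0568 and 0.0624).

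Genes that work beside the members were read from lists. Of 17 genes for targeting to the ER and translocon partners, 5 were higher and none lower in CBA/CaH, and 4 higher and 4 lower in QSi5. Ssr4, a subunit of the translocon-associated protein complex, rose by 2.35 and 2.25 (adjusted p = 1.06e-04 and 1.11e-04). Srpr, the receptor of the signal recognition particle, rose by 1.27 and 1.38. Of 17 ER exit and retrieval genes CBA/CaH had 4 higher and 3 lower, and QSi5 had 2 higher and 4 lower. Kdelr3, a retrieval receptor, rose by 1.52 in CBA/CaH and read 0.38 in QSi5 (adjusted p = 0.22).

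In lists farther along the route lower calls outnumbered higher ones, where 29.5% and 32.7% of all genes were lower in the respective strains. Among genes with a mean level of at least 8 the lower shares were 51.1% and 54.2%, and the lists were not tested against them. Of 21 Golgi tethers 6 were lower in CBA/CaH and none higher, and 9 lower and 1 higher in QSi5, among them Golga2 (-1.04 and -1.19) and Cog7 (-1.17 and -1.53). Of 11 ARF regulators 7 and 6 were lower and 2 and 2 higher, among them Arfgap2 (-1.73 and -2.09). Of 17 clathrin and adaptor genes 9 and 10 were lower and none higher, among them Ap1g2 at -1.76 and -1.61, and of 9 exocyst genes 5 and 5 were lower and none higher. Of 25 SNARE partners 5 and 4 were higher and 9 and 9 lower. Stx1a, known from neurons, rose by 1.93 and 1.56. With quantile normalization the medians of the Golgi tethers turned positive in both strains (0.40 and 0.13) and the clathrin median was -0.05 and 0.07. The medians of the SNARE partners turned from -0.08 and -0.27 to 0.36 and 0.19, and in QSi5 those of ER targeting and ARF regulators turned to 0.57 and 0.09. Of 8 regulators of secretory capacity 1 was higher and 1 lower in each strain. Xbp1, a transcription factor that expands the ER of secretory cells, rose by 0.61 and 0.71 (adjusted p = 0.00788 and 0.00252), and Creb3l2 fell (-0.72 and -0.98).

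The second comparison asked whether the strains differ. Vamp3, an R-SNARE of recycling endosomes, was the only member called on its brightest probe set. It was the 1 of 89 lower in QSi5 in pregnancy, where 0.77% of all genes were higher and 0.451% lower, and again at lactation, where 0.159% were higher and 0.187% lower. No member was higher in QSi5 at either stage on its brightest probe set, and unadjusted p was under 0.05 for 13 and 7 members in either direction. With limma's intensity trend and robust variances the counts of higher members were 0 as well. Trappc13 had calls on other probe sets. In pregnancy QSi5 lay above CBA/CaH on 2 of its 3 sets, by 1.14 (limma adjusted p = 0.00523) and 1.29 (adjusted p = 0.0038), while the brightest gave 0.62 (adjusted p = 0.0958). With the mean of its 3 sets Trappc13 was higher in pregnant QSi5 mice by 1.02 (adjusted p = 5.79e-04). Vamp3 read 11.35, 11.46, 11.08, 10.93 and 11.43 in pregnant CBA/CaH mice and 9.55, 9.61, 9.67, 10.09 and 9.96 in pregnant QSi5 mice. At lactation it read 10.96, 10.59 and 10.84 against 8.72, 8.66 and 9.19. The strains do not overlap at either stage, and QSi5 minus CBA/CaH was -1.48 in pregnancy (SE 0.15, limma adjusted p = 3.88e-05) and -1.94 at lactation (SE 0.19, adjusted p = 8.82e-05).

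The Vamp3 difference was called on 1 of its 5 probe sets. The other 4 read -0.23, 0.04, 0.23 and -0.01 in pregnancy, none called, and -0.54, -0.49, -0.46 and -0.21 at lactation, none called. At lactation QSi5 also lay below CBA/CaH without overlap on 3 of these 4, as on the second set, with 9.01 to 9.28 against 9.61 to 9.73. With the mean of the 5 probe sets the pregnancy difference was -0.29 (adjusted p = 0.346). On the AIL arrays the probe set used ran from 9.08 to 10.65, which overlaps both parental groups at lactation.

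**Figure D4:**
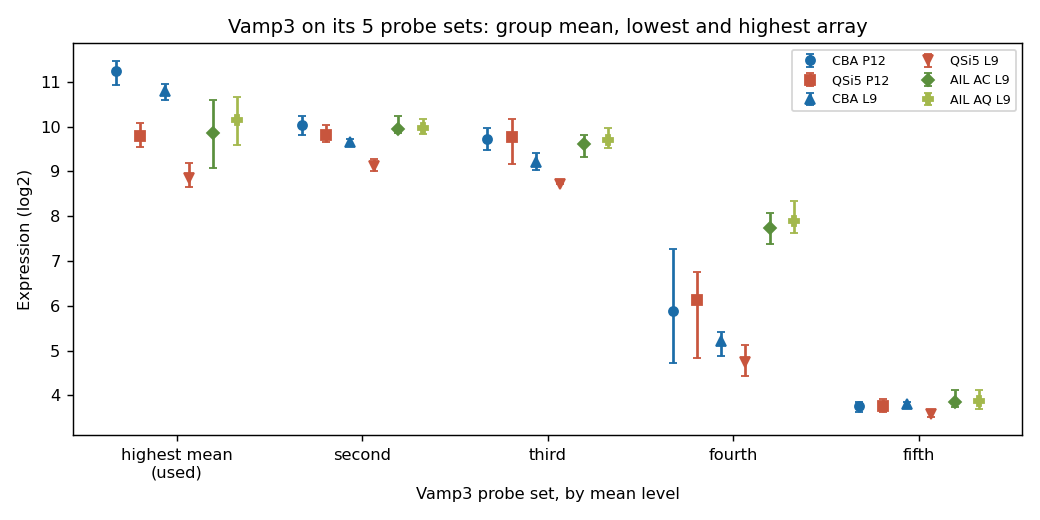
Vamp3 on its 5 probe sets, ordered by mean level (x axis), as group mean with the lowest and highest array (log2, y axis). On the first set QSi5 lies below CBA/CaH at both stages without overlap, and on the other 4 sets the pregnancy groups of the strains overlap.

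The interaction asked whether the stage difference itself differs between the strains. No member was called on its brightest probe set, where 0.044% of all genes were called higher and 0.055% lower, and 6 members had an unadjusted p under 0.05. With limma's intensity trend and robust variances the count was 0 too. The differences of stage differences ran from -0.76 for Sec11a (SE 0.21, adjusted p = 0.448) to 0.85 for Vamp5 (SE 0.31, adjusted p = 0.789). Calls in 1 strain alone, such as that of Tmed3, are thus not shown to differ between strains. They are not shown to be alike either, since this comparison recovered 32% of simulated interactions of 1 log2 unit.

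The third comparison set the AIL mice against each parental strain at lactation. More trafficking genes were higher than lower in the AIL. Of the 89, 42 were higher and 6 lower than in CBA/CaH, where 18% of all genes were higher and 16.2% lower. Against QSi5 51 were higher and 7 lower, where 19.4% of all genes were higher and 18.5% lower. The comparisons share the AIL arrays and are given side by side. Among bright genes as a whole higher calls also outnumbered lower ones. Of all genes at level 8 or above, 40.9% were higher and 5.83% lower than in CBA/CaH, and 43% higher and 5.8% lower than in QSi5. Of the 56 members at that level 46.4% and 66.1% were higher, and the difference from other bright genes was not tested. The median difference over the 89 members was 0.37 against CBA/CaH and 0.44 against QSi5.

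**Figure D5:**
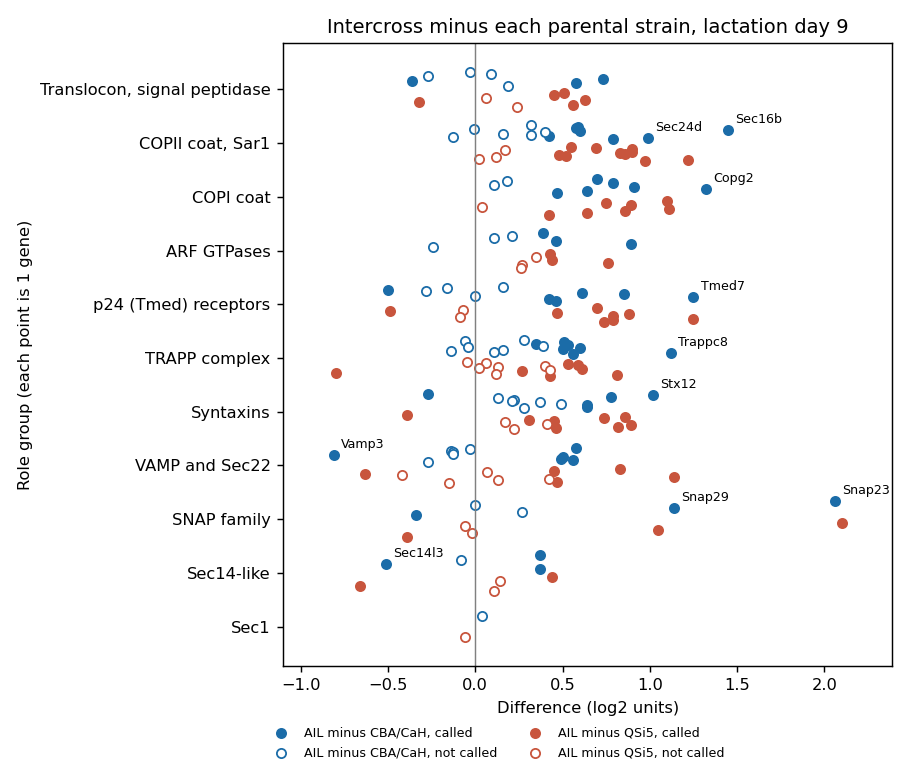
Difference between the 10 AIL arrays and the 3 arrays of each parental strain at lactation (log2 units, x axis) for the 89 genes by role, against CBA/CaH (blue) and QSi5 (red). Filled points were called. Snap23 lies farthest to the right, at 2.06 and 2.10, and Vamp3 has opposite signs. With quantile normalization fewer members were higher (29 and 34).

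Snap23 differed most. On the 10 AIL arrays it ran from 9.03 to 10.12, with medians of 9.50 for AC and 9.26 for AQ, against 6.96 to 8.01 in CBA/CaH mice and 7.11 to 7.50 in QSi5 mice. Every AIL array stood above every parental array. Snap23 was higher by 2.06 (SE 0.22, adjusted p = 2.40e-06) and 2.10 (SE 0.22, adjusted p = 1.79e-06), and its other probe sets read 1.71 and 0.28 against CBA/CaH. Snap29, the SNARE of the family in endosomes and autophagy, was higher by 1.14 and 1.05 (SE 0.19), and by 0.70 to 0.95 on its other 2 probe sets.

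The coats followed the same direction. Of 13 COPII and Sar1 genes 7 were higher than in CBA/CaH and 10 higher than in QSi5, with none lower. Over all genes 18% and 19.4% were higher, and among genes at level 8 or above 40.9% and 43%. The coats were not tested against these shares. Sec24d ran from 9.05 to 9.53 in the AIL, against 8.05 to 8.56 on CBA/CaH arrays and 7.58 to 8.43 on QSi5 arrays, and was higher by 0.99 and 1.22 (SE 0.14, adjusted p = 6.12e-05 and 7.10e-06). Sec31a of the outer coat was higher by 0.79 and 0.97, and Sec16b by 1.45 and 0.90. Of 8 COPI genes 6 and 7 were higher, with Copg2 at 1.32 and 0.86 and Copa at 0.70 and 1.10. Trappc8 was higher by 1.12 and 0.81 (SE 0.11, adjusted p = 8.77e-07 and 3.02e-05), and Stx12, an endosomal syntaxin, by 1.02 and 0.86.

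Members with the largest stage differences were read in the AIL as well. Stx6 ran from 7.20 to 8.03 in the AIL, above all 6 parental lactation arrays and below every pregnancy array, and was higher by 0.64 (SE 0.15, adjusted p = 0.00415) and 0.82 (SE 0.15, adjusted p = 5.80e-04). Sec23a was higher by 0.60 and 0.83 (adjusted p = 0.00772 and 7.15e-04), and the CBA/CaH call was lost with lactation CBA/CaH array 3 left out (adjusted p = 0.115). Stx19, Trappc2l and Arf6 were not called against either strain on their brightest probe sets. An Arf6 set with a mean level of 8.78 was higher than in QSi5 by 0.50 (limma adjusted p = 0.00816). One with a mean level of 4.13 was higher by 1.06 and 0.78 (adjusted p = 0.00142 and 0.00999). Lower in the AIL than in both strains were Sec14l3 (-0.51 and -0.66), Sec61b (-0.36 and -0.32) and the dim Tmed2, Stx11 and Snap91. Trappc6a (-0.80) and Vamp1 (-0.63) were lower than in QSi5 and not called against CBA/CaH, and Vamp3 was lower than in CBA/CaH (-0.81) and higher than in QSi5 (1.14). The CBA/CaH call of Vamp3 was lost without lactation CBA/CaH arrays 1 or 3 (adjusted p = 0.08 and 0.0762) and with the replicate block (0.0812). That of Stx6 was lost with cyclic loess (0.0758), and those of Sec61b and Snap91 against both strains with equal array medians.

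Probe sets of 1 gene differed widely in this comparison. The brightest Sec61a1 set read -0.27 and 0.06, while sets with mean levels of 7.67 and 6.43 were higher by 2.59 and 2.97 against CBA/CaH and by 2.86 and 3.57 against QSi5. A Vamp3 set with a mean level of 6.47 was higher by 2.61 and 3.07, whereas the brightest read -0.81 and 1.14. For Sec62 the 2 brightest sets were called in opposite directions, at 0.58 and -0.58 against CBA/CaH. Of the 58 members with several probe sets, 5 called against CBA/CaH and 8 called against QSi5 had another set called the other way.

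Other measures separated the AIL arrays from the parents. The Gapdh 3' minus 5' value was 0.54 to 0.80 on all AIL arrays and 1.12 to 2.02 on the parental lactation arrays, without overlap. Of 9 fibroblast and matrix genes 8 were higher in the AIL than in each strain, with a mean level of the list of 8.11 to 8.97 on the AIL arrays and 7.09 to 7.80 on the parental ones. Of 7 white adipocyte genes 6 and 5 were higher and of 7 macrophage genes 5 and 4. Of 8 endothelial genes 4 and 5 were higher and none lower. Of 9 epithelial genes 2 were higher and 1 lower than in CBA/CaH, and 3 were higher and none lower than in QSi5. Of 8 myoepithelial genes 2 and 4 were higher, and of 10 milk protein genes 2 and 1, with none lower. Of 8 B and plasma cell genes 2 were higher and 1 lower than in CBA/CaH, and 4 were lower than in QSi5, and of 9 nerve genes 2 were lower than in each strain. Their part in the higher trafficking genes was not tested. With quantile normalization 29 members were higher and 15 lower than in CBA/CaH and 34 and 9 against QSi5. Of all genes 12.2% were then higher and 18.6% lower than in CBA/CaH, and 13.5% and 20% against QSi5, so the share of higher calls was smaller than with the deposited values for members and for all genes. With cyclic loess 27 members were higher and 13 lower against CBA/CaH (12.4% and 15.3% over all genes), and 35 and 7 against QSi5 (13.1% and 16.4%). With equal array medians it was 49 and 3 (22.2% and 9.63%), and 57 and 5 (24.7% and 9.86%). Under all 3 other scalings 25 and 32 members remained higher, among them Snap23, Snap29, Sec24d, Sec31a, Copg2, Trappc8, Tmed7 and Stx12 in both comparisons. The share of all genes that remained higher was not counted.

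The AIL mice with the codes AC and AQ did not differ by any call. Of the 89 members none was higher and none lower, as for all genes (0% and 0%), and 2 members had an unadjusted p under 0.05. The count was also 0 with limma's intensity trend and robust variances. The differences ran from -0.35 to 0.32 log2 units.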

How the data were processed

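Biotin-labelled cRNA made from total mammary gland RNA was hybridised to 26 Affymetrix arrays, as the labels' protocols state. The authors deposited log2 expression values, 1 per probe set and array, computed with RMA according to the submitters' processing notes. Its version, the chip definition and whether the arrays were processed together are not given in the sources used here. The values were used as deposited; no pair of arrays was identical. Precision is limited by the number of arrays.

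The table holds 45101 probe sets, of which 64 controls were dropped. GEO's platform annotation, which can be old, gave 34945 probe sets 1 symbol, 932 several and 9160 none. Among those with several, 13 list a name of the members' form and were not used.

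Linear models (limma 3.58.1, R 4.3.3, lmFit and eBayes) were fitted to the 16 parental arrays for stage, strain and interaction, and to the 16 lactation arrays for the AIL. Benjamini-Hochberg adjustment ran over all 45037 probe sets, and a call is an adjusted p under 0.05. Errors given as SE belong to the fitted difference. The labels do not say that arrays are separate animals, so p-values measure the spread between arrays. Named members were the 5 highest and 5 lowest called differences of each comparison, up to 4 called and 2 bright uncalled members of each role, and a fixed set of pathway genes; outside the members, 2 genes of each list. Sec14-like, Stx8, Stx11, Stx18, Tmed6, Tmed11, Trappc8, Vamp7 and the probe sets singled out were partly chosen after their values were seen. Members, lists and tests were chosen with earlier results of these data known. The models were tested on simulated data. Alternatives were 3 other scalings, a filter on mean level, an intensity trend with robust variances, fits to the compared groups only, array weights, a replicate block, the mean of all probe sets, a difference of at least 1, and arrays left out singly or where they stood apart. Same-numbered arrays were not taken as pairs, since not every pair of any 2 groups correlated above 0.1. Figures were drawn with matplotlib 3.10.9.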

Additional observations from a re-analysis of the deposited data

Results flagged for a closer look

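In each group of 5 arrays of the 69 named members a single array far from the others was looked for, in 276 sets of values, of which chance alone sets apart about 1 in 20. There were 30, and 17 of them were on the pregnancy QSi5 array 4, the array with the high Gapdh 3' minus 5' value. It was far below the others for Arf4 (9.31), Copa (9.31), Copb1 (7.92), Copb2 (7.06), Copg1 (7.22), Copg2 (6.63), Sec14l1 (8.51), Sec22a (7.19), Sec23a (7.61), Sec24a (6.69), Sec24c (8.80), Sec31a (6.31), Tmed10 (8.33), Tmed7 (8.18), Trappc1 (8.53), and far above them for Snap25 (3.50) and Stx2 (7.05), all log2 levels. The smallest gap of the low ones was to 8.90 for Trappc1 and the widest to 9.56 for Copb2. Without this array 12 members were higher and 44 lower at lactation in QSi5.

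The other 13 were spread over the groups. In pregnancy QSi5 they were Stx3 on array 5 (7.14, others 8.77 to 9.05), Tmed3 on array 2 (10.54, others 10.82 to 10.86), Vamp1 on array 5 (7.01, others 5.73 to 6.08). In pregnancy CBA/CaH they were Stx16 on array 2 (9.12, others 8.49 to 8.65). In AIL AC they were Stx11 on array 2 (4.83, others 4.54 to 4.59), Tmed3 on array 3 (11.42, others 11.74 to 11.87), Tmed7 on array 2 (10.0, others 10.53 to 10.60), Vamp8 on array 3 (9.90, others 10.43 to 10.60). In AIL AQ they were Copg1 on array 2 (8.74, others 8.39 to 8.47), Sec14l3 on array 4 (7.64, others 7.53 to 7.55), Sec24d on array 5 (9.16, others 9.45 to 9.53), Sec61b on array 1 (11.30, others 11.54 to 11.61), Vamp1 on array 1 (6.35, others 5.90 to 5.95). No cause of these values was tested.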

How the results depend on the processing

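Counts of members between the stages depended most on the scaling of the arrays. With array medians set equal, quantile normalization and cyclic loess, 5, 33 and 30 members were higher at lactation in CBA/CaH and 4, 33 and 33 in QSi5. With the last 2 of these, the lower members numbered 14 and 12 for CBA/CaH, and 19 and 20 for QSi5. A difference of at least 1 log2 unit left 3 higher and 13 lower for CBA/CaH, and for QSi5 3 higher and 18 lower. Against CBA/CaH, 27 members were higher in the AIL with cyclic loess, and 3, 15 and 13 lower with the 3 scalings, 3 with the filter on level. Against QSi5, 4 were lower with that filter and 4 without the arrays that stood apart. For strain in pregnancy, array weights gave 5 higher and 2 lower and the mean of all probe sets 1 and 0, and for strain at lactation array weights gave 2 lower. No alternative gave a call for the interaction or for AQ against AC.

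The replicate block, fitted although the numbers were not taken as pairs, left 7 members higher in CBA/CaH and 9 in QSi5 and gave 1 higher for strain in pregnancy. Deviations of same-numbered arrays from their group means correlated at 0.007 to 0.316 between AC and AQ, with 4 of 5 pairs over 0.1 and 3 of 5 arrays of each code correlating best with their own number. Between the CBA/CaH stages the range was 0.019 to 0.124 and 3 of 3 correlated best with their own number, a hint from the data and not the design. The other parental pairs lay between -0.426 and 0.112.

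With single arrays left out, the members higher at lactation ranged from 7 to 13 in CBA/CaH and from 8 to 14 in QSi5, and those lower from 22 to 28 and from 27 to 44. For strain in pregnancy 0 to 1 were higher and 1 to 2 lower, at lactation 0 and 1. Higher in the AIL were 30 to 42 against CBA/CaH and 40 to 52 against QSi5, lower 3 to 6 and 5 to 8. Counts moved by over 1.5 times without lactation CBA/CaH array 2 (7 higher at lactation), lactation QSi5 array 1 (8) or 3 (9), pregnancy QSi5 array 2 (1 higher for strain) or 4 (1 higher and 2 lower for strain), and lactation CBA/CaH arrays 1 and 3 (3 lower in the AIL each).

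Stage differences that turned positive were, with quantile normalization, Sar1a 0.43, Tmed10 0.59, Trappc1 0.46, Trappc3 0.63, Vamp3 0.04 in CBA/CaH and Copz1 0.09, Sar1a 0.24, Sec14l1 0.50, Sec22b 0.46, Sec61a1 0.04, Tmed10 0.44, Tmed5 0.68, Trappc1 0.72, Trappc3 0.66, Vamp8 0.44 in QSi5. With cyclic loess they were Arf1 0.08, Sar1a 0.41, Tmed10 0.57, Trappc1 0.43, Vamp3 0.16 in CBA/CaH and Arf1 0.04, Copz1 0.09, Sar1a 0.20, Sec14l1 0.48, Sec22b 0.43, Sec61a1 0.16, Tmed10 0.39, Tmed5 0.66, Trappc1 0.68, Trappc3 0.63, Vamp8 0.49 in QSi5. With the mean of all probe sets they were Copz1 0.10, Sar1a 0.39, Sec11a 0.28, Trappc12 0.34 in CBA/CaH and Arf1 0.01, Copz1 0.30, Sar1a 0.02, Sec24b 0.02, Tmed5 0.71, Trappc12 0.33 in QSi5, and Vamp3 turned to 0.52 in the AIL against CBA/CaH. The cause was not tested. Data with these group sizes and 45037 probe sets in all were simulated with independent normal errors. For each comparison 100 probe sets were changed by 1 log2 unit and 100 by 2 log2 units. Of those changed by 1 log2 unit, 73% were recovered between the stages in CBA/CaH and 76% in QSi5. Recovery was lower, at 64%, when the lactating mice of the 2 strains were compared. It was lowest, at 32%, when the stage difference itself differed between the strains. Smaller differences were not simulated. The real CBA/CaH stage comparison called 30.4% of all genes higher and 29.5% lower, far more than were changed here. Recovery in the real stage comparisons can therefore differ from these shares.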
